A study of Mus musculus with 10 samples.

Results

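Genes of S phase and mitosis were measured by RNA sequencing in cultured peritoneal macrophages of Mac-GsαKO mice (KO, 5 libraries) and of control mice (CTR, 5 libraries). The list held 35 genes of the 53465 in the count table, 12 of S phase and 23 of mitosis. A gene was used where it reached 1 CPM (counts scaled by the library total) in at least 5 of the 10 libraries, which 34 genes did, all 12 of S phase and 22 of mitosis. The gene left out was Cenpf, which encodes a large kinetochore protein and reached 1 CPM in 3 libraries, and the nearest gene kept was Kif2c, at 1 CPM in 7 libraries (2 KO and 5 CTR).

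By their name, the KO mice lack Gsα, the stimulatory G protein subunit encoded by Gnas, in macrophages. The labels give neither the Cre driver nor the alleles of the CTR mice, nor whether the libraries come from different mice, and every error and p below describes only how far these 10 libraries scatter. All mice were aged 6 to 8 weeks, and all cells were grown in serum-supplemented medium without further treatment. Libraries held 16877249 to 19235777 counts in KO and 15664243 to 18028974 counts in CTR. Below, CPM are scaled by TMM (a normalisation to the bulk of genes), a positive log2 fold change means a higher level in KO, SE is its standard error, and a gene is said to rise or fall only where its adjusted p in the edgeR quasi-likelihood test over all 13203 genes tested was under 0.05.

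A dividing cell switches these genes on in sequence. E2F factors, freed from the retinoblastoma proteins when cyclin-dependent kinases (CDKs) are active, drive the genes that load the replicative helicase and make deoxynucleotides for S phase. The DREAM and B-Myb complexes then control the genes of mitosis through a promoter element called the CHR, often together with NF-Y boxes. Peritoneal macrophages maintain themselves by local division, cultured ones divide little, and in bulk RNA fewer dividing cells and less RNA per dividing cell cannot be told apart.

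Gnas stood at 43.5, 37.0, 39.6, 42.3 and 38.8 CPM in KO 1 to KO 5, against 487, 359, 459, 491 and 378 CPM in CTR 1 to CTR 5, and the fitted log2 fold change was -3.43 (SE 0.11, adjusted p = 9.16e-09). Every KO library lay far below every CTR library, as the labels say. The sum of 10 macrophage markers was 15304 to 17093 CPM in KO and 30570 to 39078 CPM in CTR, most of it lysozyme (Lyz2, 9240 CPM in KO and 26528 CPM in CTR). Of these 10 markers 3 were called: Lyz2 fell, while Csf1r (1295 CPM in KO and 942 CPM in CTR, log2 fold change 0.46, adjusted p = 0.0235) and Itgam (652 CPM in KO and 377 CPM in CTR, 0.79, adjusted p = 0.0494) rose. Cd68 (2828 CPM in KO and 2929 CPM in CTR) and Adgre1 (865 CPM in KO and 750 CPM in CTR) were not called. CTR 4 stood apart in complexity, with 17894 genes detected against 18479 to 18985 in the other 9 libraries and a TMM factor of 0.908 against 0.994 to 1.03. Genes detected did not overlap between genotypes (18683 to 18985 in KO and 17894 to 18652 in CTR), nor did the share of mitochondrial counts (1.204% to 1.36% in KO and 1.39% to 1.97% in CTR), and their part in the results was not tested. The library numbers in the labels do not interleave, every KO number being below every CTR number. What they mark is not given, and any order they stand for cannot be told apart from genotype.

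No cell cycle gene of the list passed the test. All 22 mitotic genes that met the 1 CPM rule had a lower value in KO, as had 10 of the 12 S phase genes. Of all genes tested, 49.2% had a higher value in KO. Cenpf, the mitotic gene left out by the rule, was higher in value. It averaged 0.852 CPM in KO and 0.774 CPM in CTR (log2 fold change 0.13, SE 0.46, adjusted p = 0.889). The median log2 fold change was -0.49 for the mitotic genes and -0.25 for the 12 S phase genes, against -0.01 over all genes tested. By edgeR, 0 of the 22 mitotic genes and 0 of the 12 S phase genes were called, where 3.94% of all genes were called (1.83% higher and 2.11% lower). At an unadjusted p under 0.05, 7 mitotic genes (31.8%) were lower and none was higher, against 11.9% lower and 10% higher over all genes, and among S phase genes 1 was lower and 1 was higher. By DESeq2, 3 mitotic genes were called lower, and 1 S phase gene each higher and lower, where it called 5.23% of all genes lower and 4.54% higher. By limma voom, 5 mitotic genes were called lower and 1 S phase gene higher, where it called 6.76% of all genes lower and 7.77% higher. The sign of the 22 mitotic genes was the same under TMM, DESeq2 size factors and library-size scaling, but 18 of 22 were lower without CTR 5 (median -0.37), 19 without CTR 4 and CTR 5 (median -0.51), and 20 by voom. Bub1 and Stmn1 also turned positive without KO 4, and Bub1b without KO 2, KO 3, CTR 2 or CTR 3.

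**Figure D1:**
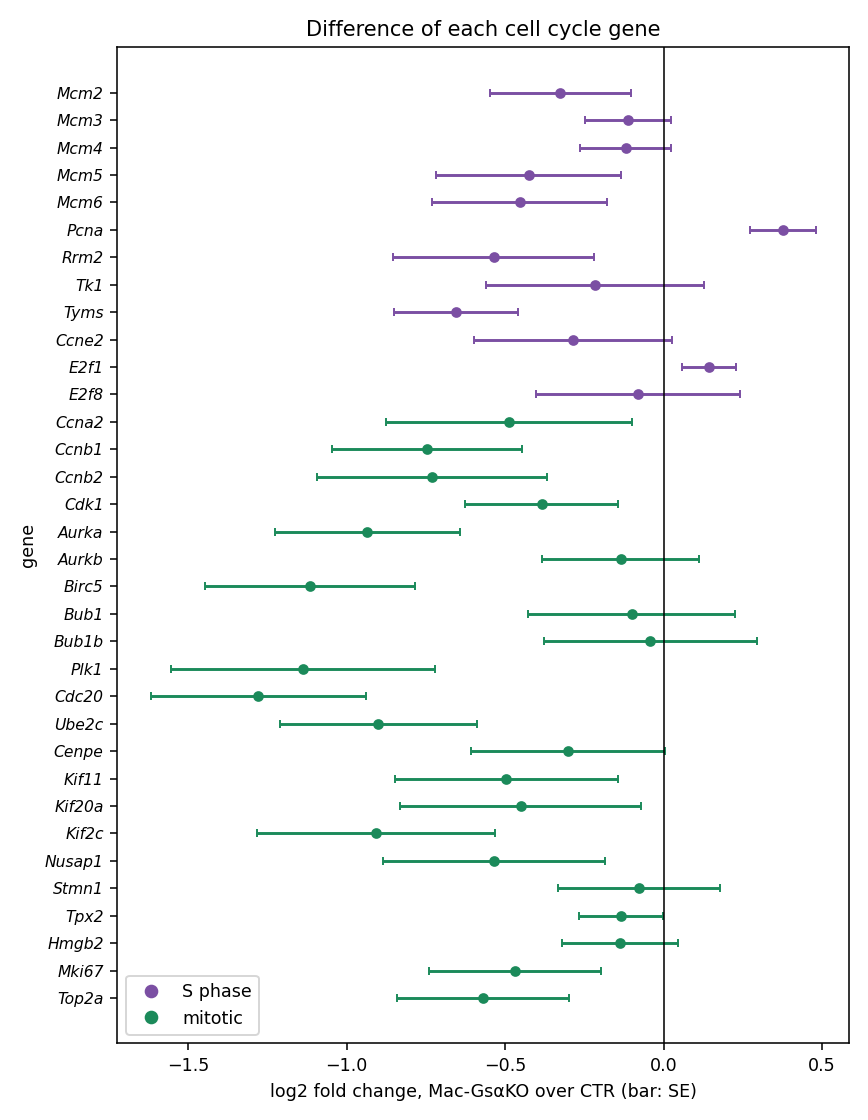
Log2 fold change of each of the 34 genes, KO over CTR, with its SE as a bar, S phase genes in purple above and mitotic genes in green below. All 22 mitotic genes lie left of 0, from -1.28 for Cdc20 to -0.04 for Bub1b, while Pcna (0.38) and E2f1 (0.14) are the S phase genes right of 0, and none of the 34 passed the test; without CTR 5, 18 of the 22 mitotic genes lie left of 0.

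The largest difference of the list was in Cdc20, a gene of the anaphase-promoting complex (APC/C), the ubiquitin ligase that ends mitosis. Cdc20 (ENSMUSG00000006398), an activator of the APC/C, stood at 0.811, 1.43, 1.34, 0.844 and 1.03 CPM in KO 1 to KO 5, against 2.23, 1.69, 3.05, 1.49 and 4.86 CPM in CTR 1 to CTR 5. All KO libraries lay below all CTR libraries, KO 2 and CTR 4 being closest; the log2 fold change was -1.28 (SE 0.34, adjusted p = 0.0564). Of all genes tested, 4.55% had every KO library below every CTR library, 3.25% had every one above, and 7.8% did either; of the 22 mitotic genes this held for Cdc20 alone. The adjusted p of Cdc20 was 0.0279 without CTR 4 and between that and 0.135 when any other library was left out. These values rest on 14 to 78 counts per library. Cdc20 shares 53 exonic bases with Elovl1 on the other strand, and whether counting used strand is not given. Elovl1, a fatty acid elongase gene, fell itself (90.4 CPM in KO and 119 CPM in CTR, log2 fold change -0.40, SE 0.10, adjusted p = 0.0462), and its part in the Cdc20 counts was not tested.

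Ube2c (ENSMUSG00000001403), the ubiquitin-conjugating enzyme of the APC/C, stood at 1.45, 1.23, 1.81, 1.58 and 2.76 CPM in KO 1 to KO 5, against 3.24, 2.28, 2.65, 2.37 and 5.92 CPM in CTR 1 to CTR 5. KO 5 alone reached into the CTR range, and the log2 fold change was -0.90 (SE 0.31, adjusted p = 0.118).

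Among mitotic kinases and checkpoint genes, the kinases of spindle assembly and survivin stood lowest in KO. Birc5 (ENSMUSG00000017716), which encodes survivin of the chromosomal passenger complex, stood at 1.91, 1.33, 1.87, 1.07 and 2.93 CPM in KO 1 to KO 5, against 3.41, 3.10, 4.51, 2.09 and 6.61 CPM in CTR 1 to CTR 5. Only KO 5 overlapped with CTR, where CTR 4 was lowest, and the log2 fold change was -1.12 (SE 0.33, adjusted p = 0.0792). Its adjusted p was 0.0342 at the lowest and 0.185 at the highest when 1 library was left out, and Birc5 was called without KO 5 and without CTR 4. Aurka (ENSMUSG00000027496), the Aurora kinase of the spindle poles, stood at 2.09, 1.43, 2.16, 1.41 and 3.33 CPM in KO 1 to KO 5, against 2.68, 3.51, 3.67, 3.58 and 6.48 CPM in CTR 1 to CTR 5. KO 5 again overlapped with CTR, here with CTR 1, and the log2 fold change was -0.93 (SE 0.29, adjusted p = 0.0894); leaving out KO 5 gave an adjusted p of 0.0453.

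Plk1 (ENSMUSG00000030867), the Polo-like kinase that drives mitotic entry, stood at 2.09, 1.28, 1.34, 0.731 and 2.30 CPM in KO 1 to KO 5, against 1.96, 3.27, 3.84, 1.35 and 6.61 CPM in CTR 1 to CTR 5. CTR 1 and CTR 4 lay within the KO range, and the log2 fold change was -1.14 (SE 0.42, adjusted p = 0.135). The other genes of this group differed less than their spread. Aurkb, the partner kinase of survivin, averaged 3.85 ± 0.816 CPM in KO and 4.22 ± 1.498 CPM in CTR. The checkpoint kinase genes Bub1 and Bub1b had log2 fold changes of -0.10 (SE 0.33) and -0.04 (SE 0.34), which changed sign without CTR 5 (0.23 and 0.08). Bub1 also changed sign without KO 4 (0.06), and Bub1b without KO 2 (0.12), KO 3 (0.08), CTR 2 (0.03) or CTR 3 (0.09).

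The mitotic cyclins and their kinase were lower in value without passing the test. Ccnb1 (ENSMUSG00000041431), the cyclin B gene whose product triggers mitosis with CDK1, stood at 2.09, 1.33, 2.39, 1.52 and 2.24 CPM in KO 1 to KO 5, against 2.18, 4.09, 3.33, 1.62 and 4.80 CPM in CTR 1 to CTR 5. KO 2 and KO 4 lay below every CTR library and the other 3 KO libraries in the lower part of the CTR range, and the log2 fold change was -0.75 (SE 0.30, adjusted p = 0.170). Cdk1 (ENSMUSG00000019942) stood at 4.23, 5.07, 3.73, 2.93 and 7.01 CPM in KO 1 to KO 5, against 5.75, 5.14, 5.14, 5.07 and 8.91 CPM in CTR 1 to CTR 5, and the log2 fold change was -0.38 (SE 0.24, adjusted p = 0.381). KO 1, KO 3 and KO 4 lay below every CTR library, KO 2 was level with CTR 4, and KO 5 lay within the CTR range. Ccnb2, a second cyclin B gene, averaged 1.48 ± 0.611 CPM in KO and 2.46 ± 1.03 CPM in CTR. Both cyclin B genes have a copy elsewhere whose reads can be shared with them. Ccnb1-ps averaged 0.811 CPM in KO and 1.18 CPM in CTR, and Ccnb2-ps 0.772 CPM in KO and 0.895 CPM in CTR. The part of these copies was not tested. Ccna2, the cyclin A gene of S phase and G2, averaged 3.61 ± 2.29 CPM in KO and 5.05 ± 2.20 CPM in CTR. Its exons overlap those of Exosc9 on the other strand by up to 428 bases. Exosc9 averaged 19.4 CPM in KO and 24.6 CPM in CTR, and its part in the Ccna2 counts was not tested.

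Chromosome-bound proteins gave the classical marks of proliferation. Mki67 (ENSMUSG00000031004), which encodes the Ki-67 antigen that coats mitotic chromosomes, stood at 6.201, 5.94, 6.77, 4.44 and 11.4 CPM in KO 1 to KO 5, against 8.99, 12.7, 12.7, 5.54 and 7.98 CPM in CTR 1 to CTR 5. The genotypes overlapped at both ends, with KO 5 above CTR 1, CTR 4 and CTR 5, and CTR 4 above KO 4 alone, and the log2 fold change was -0.47 (SE 0.27, adjusted p = 0.337). Top2a (ENSMUSG00000020914), the topoisomerase that untangles sister chromatids, stood at 9.10, 6.61, 7.52, 5.01 and 12.4 CPM in KO 1 to KO 5, against 9.44, 13.8, 14.9, 6.42 and 15.6 CPM in CTR 1 to CTR 5. KO 4 and CTR 4 were again lowest of their genotypes, and the log2 fold change was -0.57 (SE 0.27, adjusted p = 0.243). Hmgb2 (ENSMUSG00000054717), a chromatin protein gene not confined to mitosis, stood at 4.69, 6.10, 3.91, 4.28 and 4.02 CPM in KO 1 to KO 5, against 5.36, 3.97, 4.23, 6.62 and 5.17 CPM in CTR 1 to CTR 5, and its log2 fold change was -0.14 (SE 0.18, adjusted p = 0.692). KO 5 and CTR 5, high for most mitotic genes, were not high for Hmgb2.

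Kinesins and kinetochore genes that met the rule were lower in value, with log2 fold changes from -0.91 to -0.30. Cenpf, which did not meet it, stood at 0.13. Kif2c, a microtubule depolymerase, averaged 0.859 ± 0.492 CPM in KO and 1.61 ± 0.443 CPM in CTR (log2 fold change -0.91, SE 0.38, adjusted p = 0.183). Kif11, the kinesin that separates spindle poles, averaged 2.08 ± 1.09 CPM in KO and 2.92 ± 0.714 CPM in CTR. Cenpe, a kinetochore kinesin, averaged 2.01 ± 0.888 CPM in KO and 2.47 ± 0.618 CPM in CTR. For each of them the genotypes overlapped. Kif20a, a kinesin of cytokinesis, averaged 2.44 ± 1.32 CPM in KO and 3.33 ± 1.55 CPM in CTR, but up to 977 of its exonic bases overlap Cdc23 on the other strand, at 24.3 CPM in KO and 25.96 CPM in CTR, so part of its reads may be assigned to either.

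The 3 spindle and microtubule genes differed least among the mitotic groups by median log2 fold change (-0.13), but Nusap1 among them stood at -0.54. Stmn1 (ENSMUSG00000028832), a microtubule destabiliser, stood at 7.07, 7.53, 8.28, 3.60 and 6.09 CPM in KO 1 to KO 5, against 4.41, 7.19, 5.30, 7.10 and 10.5 CPM in CTR 1 to CTR 5. The ranges overlapped almost fully, and the log2 fold change of -0.08 (SE 0.26, adjusted p = 0.882) became 0.12 without CTR 5. Tpx2, an activator of Aurora A on the spindle, averaged 10.1 ± 1.37 CPM in KO and 11.1 ± 1.53 CPM in CTR. Nusap1, a spindle-binding protein gene, averaged 1.55 ± 0.831 CPM in KO and 2.24 ± 0.80 CPM in CTR (log2 fold change -0.54, SE 0.35, adjusted p = 0.403). Its exons overlap those of Oip5 on the other strand by up to 172 bases. Oip5 averaged 0.891 CPM in KO and 1.78 CPM in CTR, and its part in the Nusap1 counts was not tested.

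**Figure D2:**
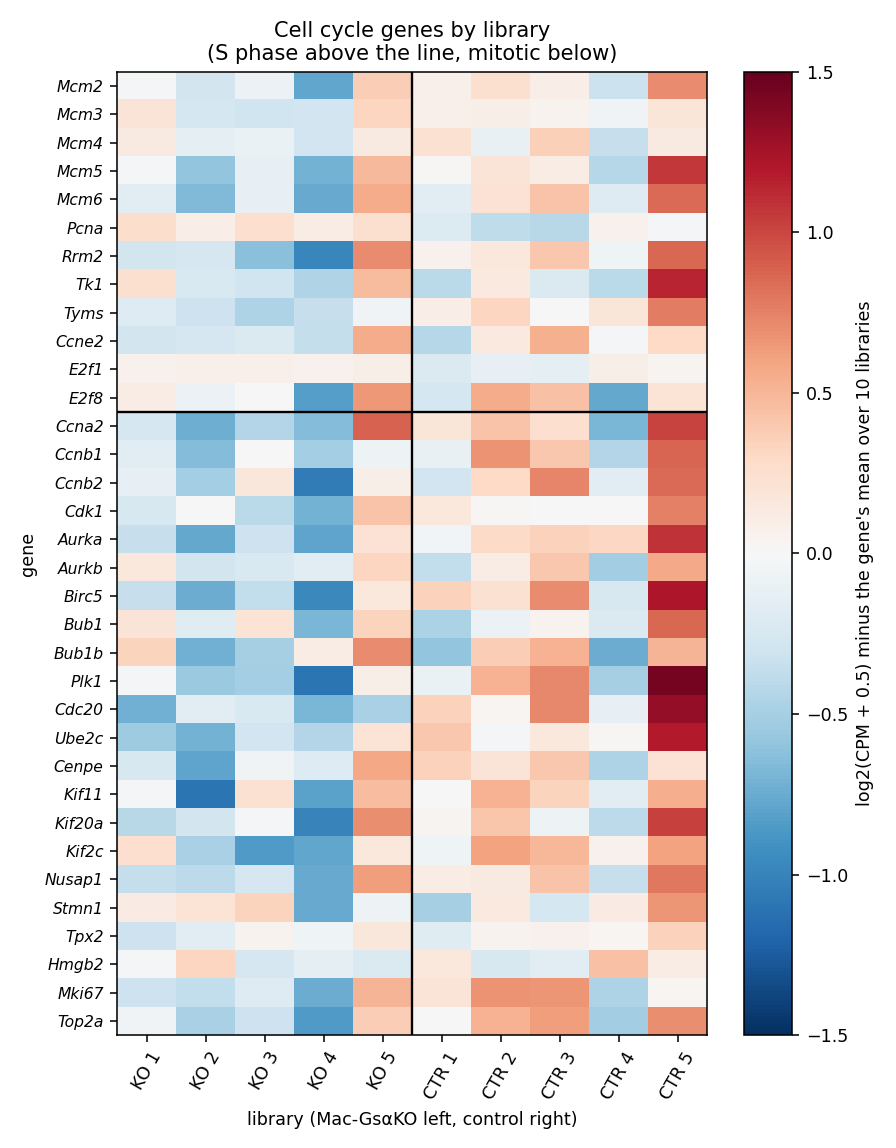
Level of each of the 34 genes in each library as log2(CPM + 0.5) minus the gene's mean over the 10 libraries, KO libraries left of the vertical line and CTR libraries right of it, S phase genes above the horizontal line. KO 5 and CTR 5 are the reddest columns of their genotypes and KO 4 and CTR 4 the bluest, and the row of Pcna runs opposite to most others.

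Promoter windows of most, but not all, of these genes held letters of the elements named above, which are known from cell cycle genes. RefSeq promoter windows, 250 bases before to 50 bases after the gene start on GRCm38.p6, were found for 28 of the 35 genes and searched on both strands for the CHR (spelled TTTGAA, with the variant TTTAAA and the variant TTCGAA), for the NF-Y box (CCAAT) and for E2F sites (spelled TTCCCGC, with the variants TTGGCGC and further TTCGCGC and finally TTGCCGC). An NF-Y box read as ATTGG can overlap the E2F letters TTGGCGC. Shown here are 4 of the 5 mitotic genes with the lowest p, with these matches in capitals. The gene of these 5 that is not shown is Birc5, whose window held a CHR at -220 only and no NF-Y box. Sequences are read 5′ to 3′ along the gene's strand. The mitotic genes are followed by the S phase genes Pcna and Tyms, whose genotypes did not overlap in opposite directions.
Cdc20, chr4:118437294-118437593, minus strand: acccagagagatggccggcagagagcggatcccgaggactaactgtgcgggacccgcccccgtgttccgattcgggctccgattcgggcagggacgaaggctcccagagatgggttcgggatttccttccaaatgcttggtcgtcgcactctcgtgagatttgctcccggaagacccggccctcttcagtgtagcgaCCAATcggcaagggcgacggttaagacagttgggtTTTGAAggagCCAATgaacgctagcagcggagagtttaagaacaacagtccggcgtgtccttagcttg
Aurka, chr2:172370521-172370820, minus strand: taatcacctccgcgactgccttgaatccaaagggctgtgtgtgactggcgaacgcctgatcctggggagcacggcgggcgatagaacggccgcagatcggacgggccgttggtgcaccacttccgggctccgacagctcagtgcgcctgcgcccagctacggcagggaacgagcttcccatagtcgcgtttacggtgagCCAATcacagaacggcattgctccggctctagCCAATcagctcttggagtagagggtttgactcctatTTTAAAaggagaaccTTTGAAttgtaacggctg
Plk1, chr7:122159185-122159484, plus strand: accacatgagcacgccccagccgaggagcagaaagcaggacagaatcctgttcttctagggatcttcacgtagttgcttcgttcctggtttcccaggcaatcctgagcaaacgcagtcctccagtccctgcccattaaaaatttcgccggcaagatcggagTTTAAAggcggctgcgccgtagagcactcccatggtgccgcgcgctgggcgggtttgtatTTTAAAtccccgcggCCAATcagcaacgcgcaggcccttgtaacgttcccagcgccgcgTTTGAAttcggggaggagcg
Ube2c, chr2:164769679-164769978, plus strand: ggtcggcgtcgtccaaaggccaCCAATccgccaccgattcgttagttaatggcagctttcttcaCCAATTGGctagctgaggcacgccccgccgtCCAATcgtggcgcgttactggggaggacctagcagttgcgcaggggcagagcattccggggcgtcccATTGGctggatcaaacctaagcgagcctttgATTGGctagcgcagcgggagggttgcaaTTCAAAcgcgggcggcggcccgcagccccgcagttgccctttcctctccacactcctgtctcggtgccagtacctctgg
Pcna, chr2:132253131-132253430, minus strand: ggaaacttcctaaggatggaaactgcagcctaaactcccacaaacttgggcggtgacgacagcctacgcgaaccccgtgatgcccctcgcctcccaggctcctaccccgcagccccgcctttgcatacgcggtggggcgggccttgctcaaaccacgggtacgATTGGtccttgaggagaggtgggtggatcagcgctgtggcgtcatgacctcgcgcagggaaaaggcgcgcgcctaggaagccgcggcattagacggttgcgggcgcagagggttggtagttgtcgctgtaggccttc
Tyms, chr5:30073576-30073875, minus strand: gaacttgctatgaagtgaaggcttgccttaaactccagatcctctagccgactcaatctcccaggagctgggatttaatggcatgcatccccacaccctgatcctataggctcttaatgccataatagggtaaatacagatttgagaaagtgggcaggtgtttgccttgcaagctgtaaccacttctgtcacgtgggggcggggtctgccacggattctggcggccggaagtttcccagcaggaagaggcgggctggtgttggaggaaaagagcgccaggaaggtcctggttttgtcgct

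Cdc20 had a CHR beginning 18 bases before its start between NF-Y boxes at -53 and -8, and Ube2c had a CHR at -29 behind 6 NF-Y boxes. Plk1 had CHR letters at -89, -29 and 31 with an NF-Y box at -14, and Aurka at 18 and 33 with NF-Y boxes at -51 and -19. The Pcna window held 1 NF-Y box at -87, and the Tyms window held none of the letters. Over the mitotic windows, 17 of 18 (94.4%) held a CHR and 15 (83.3%) an NF-Y box, against 28.8% and 37.4% of all 32851 windows. Of the 10 S phase windows, 5 (50%) held a CHR and 7 (70%) an NF-Y box. A CHR began within 50 bases of the start in 14 of 18 mitotic windows (77.8%), in 2 of 10 S phase windows (20%) and in 8.62% of all windows. E2F letters were in 5 of 10 S phase windows (50%), in 3 of 18 mitotic windows (16.7%) and in 9.57% of all windows. Birc5 had a CHR at -220 only and no NF-Y box, and Nusap1 had none of the letters. The window of the S phase gene E2f1 also held none of them. These matches describe the windows and not the binding of any factor.

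**Figure D3:**
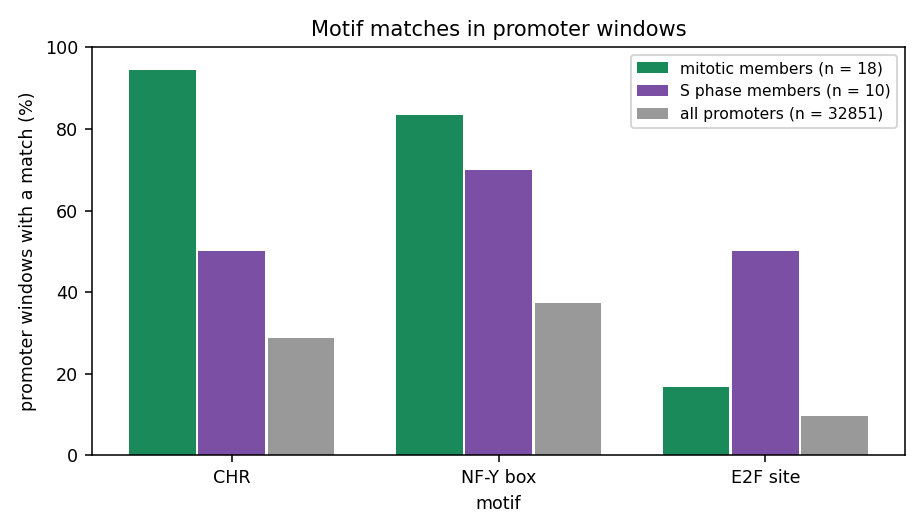
Share of promoter windows (%) with at least 1 match of each motif, for mitotic genes, S phase genes and all windows. The CHR is in 94.4% of the mitotic windows and 28.8% of all windows, and E2F letters are in 50% of the S phase windows and 9.57% of all windows.

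The S phase genes did not all stand in 1 direction. The helicase subunits Mcm2 to Mcm6, which open the DNA at replication origins, were all lower in value, with log2 fold changes from -0.45 to -0.11. Mcm2 (ENSMUSG00000002870) stood at 14.3, 11.9, 13.7, 8.33 and 19.0 CPM in KO 1 to KO 5, against 15.5, 17.4, 15.7, 11.6 and 24.2 CPM in CTR 1 to CTR 5. KO 5 lay above every CTR library but CTR 5, and the log2 fold change was -0.33 (SE 0.22, adjusted p = 0.419). Mcm5 (ENSMUSG00000005410) stood at 10.9, 7.22, 10.1, 6.64 and 15.9 CPM in KO 1 to KO 5, against 11.3, 12.8, 12.02, 8.18 and 23.8 CPM in CTR 1 to CTR 5. The same libraries were high and low, and the log2 fold change was -0.42 (SE 0.29, adjusted p = 0.425). Mcm6 averaged 9.59 ± 3.96 CPM in KO and 13.1 ± 4.26 CPM in CTR, Mcm3 averaged 31.1 ± 6.77 CPM in KO and 33.6 ± 1.98 CPM in CTR, and Mcm4 averaged 18.8 ± 2.43 CPM in KO and 20.5 ± 3.91 CPM in CTR.

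Pcna (ENSMUSG00000027342), the sliding clamp of replication and repair, was higher in every KO library. It stood at 206, 183, 204, 185 and 203 CPM in KO 1 to KO 5, against 149, 132, 128, 179 and 168 CPM in CTR 1 to CTR 5. The groups lay apart with CTR 4 nearest to KO 2, and the log2 fold change was 0.38 (SE 0.10, adjusted p = 0.0613). Pcna was called with library-size scaling, with a correction for gene length, by DESeq2 and by voom, and without CTR 4 (adjusted p = 0.0201), and its adjusted p reached 0.141 in other settings. Per gene length it had the highest level of the list, 56.6 FPKM in KO and 42.3 FPKM in CTR, values made by the authors from counts and gene length. The processed copy Pcna-ps2, whose reads can be shared with Pcna, stood at 73.8 CPM in KO and 67.7 CPM in CTR (log2 fold change 0.13, SE 0.14, adjusted p = 0.629).

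The genes of deoxynucleotide supply were lower in value in KO. Tyms (ENSMUSG00000025747), thymidylate synthase, stood at 2.55, 2.31, 2.04, 2.25 and 2.87 CPM in KO 1 to KO 5, against 3.24, 3.86, 2.99, 3.45 and 5.42 CPM in CTR 1 to CTR 5. All KO libraries lay below all CTR libraries, and the fitted difference was -0.65 on the log2 scale (SE 0.20, adjusted p = 0.0815, against 0.0406 by DESeq2). Rrm2 (ENSMUSG00000020649), the regulated subunit of ribonucleotide reductase, stood at 4.06, 4.15, 3.09, 2.31 and 8.56 CPM in KO 1 to KO 5, against 5.31, 5.67, 6.83, 4.80 and 9.54 CPM in CTR 1 to CTR 5. For Rrm2 only KO 5 overlapped with CTR, and the log2 fold change was -0.54 (SE 0.32, adjusted p = 0.349). Tk1, the thymidine kinase of the salvage route, averaged 3.53 ± 1.122 CPM in KO and 4.10 ± 2.48 CPM in CTR, with CTR 5 at 8.42 CPM, and its log2 fold change of -0.22 became 0.22 without CTR 5.

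The regulators at the start of S phase did not pass the test. E2f1 (ENSMUSG00000027490), the activator of S phase genes, stood at 27.7, 27.9, 27.9, 27.8 and 28.2 CPM in KO 1 to KO 5, against 22.8, 24.3, 23.9, 28.2 and 27.2 CPM in CTR 1 to CTR 5. The KO libraries were almost identical, with a coefficient of variation of 0.675%, the lowest of the list, and CTR 4 lay among them; the log2 fold change was 0.14 (SE 0.09, adjusted p = 0.355). Ccne2 (ENSMUSG00000028212), a cyclin E gene of the G1 to S transition, stood at 1.04, 1.08, 1.11, 0.957 and 2.24 CPM in KO 1 to KO 5, against 0.894, 1.58, 2.20, 1.35 and 1.81 CPM in CTR 1 to CTR 5. KO 5 was the highest library of all, and the log2 fold change was -0.29 (SE 0.31, adjusted p = 0.626); Ccne2 exons overlap those of Ints8 on the other strand by up to 474 bases. E2f8, an E2F repressor, averaged 3.91 ± 1.54 CPM in KO and 4.12 ± 1.56 CPM in CTR.

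Most of these genes lay below the median level of the genes tested. The median FPKM over all 10 libraries was 0.775 for the mitotic genes and 1.83 for the S phase genes, against 3.34 over all genes tested. All 22 mitotic genes and 8 of the 12 S phase genes lay below that overall median. Stmn1 led the mitotic genes at 2.28 FPKM, and E2f1 followed Pcna among the S phase genes at 5.67 FPKM.

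The libraries differed from each other in a similar manner for most genes, whatever the genotype. A score was formed for each library as the mean of log2(CPM + 0.5) over the genes of a phase. The mitotic score was 1.78, 1.504, 1.74, 1.31 and 2.22 in KO 1 to KO 5, against 1.92, 2.20, 2.28, 1.71 and 2.70 in CTR 1 to CTR 5. KO 5 was above CTR 1, CTR 2 and CTR 4, and the difference of the means, -0.45, was somewhat above the SD within a genotype (0.34 in KO and 0.38 in CTR). The S phase score was 3.48, 3.24, 3.31, 3.01 and 3.86 in KO 1 to KO 5, against 3.39, 3.60, 3.62, 3.29 and 3.997 in CTR 1 to CTR 5. The same libraries stood at the ends, and the difference of -0.20 was smaller than the SD of 0.31 in KO and 0.27 in CTR. Since the genes were chosen with results known, no p is given for a score. KO 5 held the highest KO value for 27 of the 34 genes and CTR 5 the highest CTR value for 25, while KO 4 held the lowest KO value for 19 and CTR 4 the lowest CTR value for 22. As a sum, the mitotic genes came to 57.8 to 112 CPM in KO and 74.0 to 147 CPM in CTR. The S phase sum, in which Pcna was the largest term, was higher in KO by mean (323 ± 33.7 CPM in KO and 294 ± 32.99 CPM in CTR), and without Pcna it was lower (127 ± 25.3 CPM in KO and 143 ± 24.3 CPM in CTR).

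**Figure D4:**
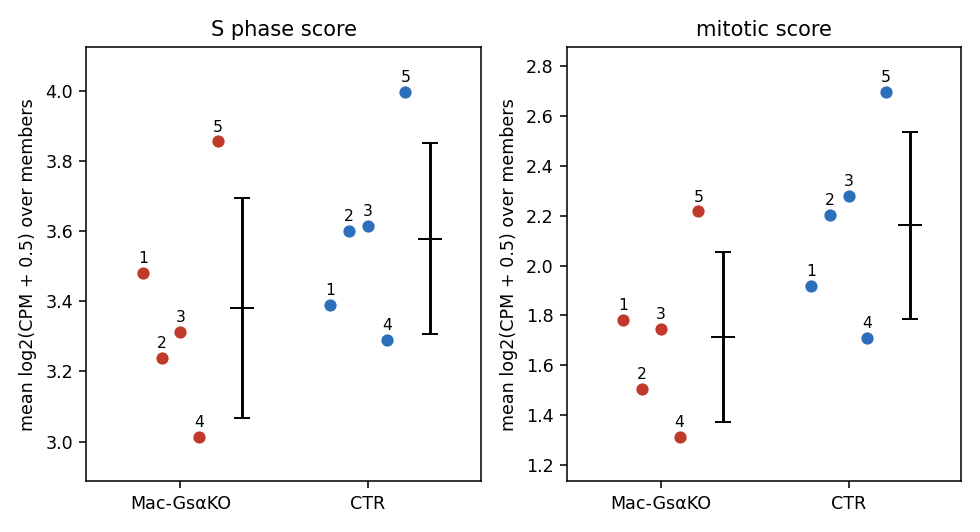
S phase score and mitotic score of each library, in mean log2(CPM + 0.5) over the genes of the phase, with replicate numbers beside the points and the mean and SD of each genotype (n = 5) as bars. The genotypes overlap in both scores, KO 5 and CTR 5 are the highest of their genotypes and KO 4 and CTR 4 the lowest.

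Markers of other cells that could divide in such cultures were low but not absent. The sum of 7 fibroblast markers was 48.8 to 65.6 CPM in KO and 30.1 to 137 CPM in CTR, where CTR 5 held the highest and CTR 4 the lowest sum. The sum of 6 mesothelial markers was 17.6 to 25.8 CPM in KO and 7.30 to 50.6 CPM in CTR, again highest in CTR 5. Of these, 5 fibroblast and 6 mesothelial markers could be tested and none was called between genotypes, and their part in the high cell cycle values of CTR 5 was not tested. In KO 5, which led its genotype as CTR 5 did, the fibroblast sum was 58.9 CPM and the mesothelial sum 22.6 CPM, inside the KO range. KO 4, lowest of its genotype in both scores, held the lowest KO sum of fibroblast markers (48.8 CPM) and of mesothelial markers (17.6 CPM). In CTR the lowest mesothelial sum was in CTR 2 (7.30 CPM). Whether these sums and the scores are tied was not tested. The sum of the B cell markers, 167 to 217 CPM in KO and 147 to 212 CPM in CTR, was nearly all Cd22. Of the 9 T and NK cell markers, the list's sum was 471 to 593 CPM in KO and 523.9 to 722 CPM in CTR, nearly all Il7r, while Cd3e averaged 0.234 CPM in KO and 0.175 CPM in CTR. Neutrophil markers summed to 12.4 to 25.3 CPM in KO and 19.0 to 27.4 CPM in CTR with Ly6g and Ngp at 0 counts and S100a8 lower in every KO library (12.97 CPM in KO and 19.1 CPM in CTR, log2 fold change -0.56, adjusted p = 0.0443), mast cell and eosinophil markers to 11.0 to 26.9 CPM in KO and 6.76 to 35.1 CPM in CTR, dendritic cell markers to at most 5.95 CPM, and erythroid markers to at most 1.51 CPM.

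Most further genes of both phases, from broader lists, were also lower in value. These lists were likewise chosen with earlier results known, and their values come from the same 10 libraries. They are therefore no independent check of the genes above. Of 53 other mitotic genes tested, 48 were lower in value in KO, with a median log2 fold change of -0.41. By edgeR 0 were called, while at an unadjusted p under 0.05 13 were lower (24.5%, against 11.9% of all genes) and 3 higher (5.66%, against 10%). DESeq2 called 1 lower and 1 higher, and voom 8 lower and 2 higher. Of all genes, edgeR called 2.11% lower and 1.83% higher, DESeq2 5.23% and 4.54%, and voom 6.76% and 7.77%. Of 43 other S phase genes, 39 were lower in value, with a median of -0.24. Of these edgeR called 0, DESeq2 0 and voom 2 lower, and at an unadjusted p under 0.05 7 were lower (16.3%, against 11.9% of all genes) and 0 higher. Without CTR 5, 41 of the 53 mitotic genes (median -0.26) and 35 of the 43 S phase genes (median -0.16) were lower in value.

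Several genes known to restrain division rose in KO, while edgeR called none of the S phase and mitotic genes above. This list was chosen with earlier results of these data known. Its shares therefore describe the genes listed and are no test of such genes as a set. Of 16 CDK inhibitors and antiproliferative genes tested, 3 rose and none fell, where 1.83% of all genes rose. In value, 11 were higher and 5 lower, with a median log2 fold change of 0.23. At an unadjusted p under 0.05, 7 (43.8%, against 10% of all genes) were higher and none lower. DESeq2 called 6 higher and voom 8, against 4.54% and 7.77% of all genes, and neither called one lower. Maf (ENSMUSG00000055435) encodes a transcription factor that helps to keep mouse macrophages from self-renewing in culture. It stood at 352, 390, 302, 317 and 273 CPM in KO 1 to KO 5, against 252, 229, 204, 202 and 187 CPM in CTR 1 to CTR 5. All KO libraries lay above all CTR libraries, and the log2 fold change was 0.61 (SE 0.11, adjusted p = 0.0192). It lost its call without KO 1, KO 2 or CTR 3, with an adjusted p up to 0.0579.

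Both families of CDK inhibitors, INK4 and CIP/KIP, had a member that rose. Cdkn2d (ENSMUSG00000096472), an INK4 inhibitor of CDK4 and CDK6, stood at 26.1, 24.6, 19.8, 26.8 and 22.2 CPM in KO 1 to KO 5, against 16.8, 15.5, 14.3, 19.7 and 18.4 CPM in CTR 1 to CTR 5. The groups lay apart, with KO 3 and CTR 4 almost touching, and the log2 fold change was 0.50 (SE 0.12, adjusted p = 0.0406). Cdkn1c (ENSMUSG00000037664), an imprinted CIP/KIP inhibitor, stood at 45.4, 73.0, 75.2, 71.9 and 53.9 CPM in KO 1 to KO 5, against 36.6, 54.8, 35.0, 29.1 and 36.2 CPM in CTR 1 to CTR 5. CTR 2 lay within the KO range, and the log2 fold change was 0.74 (SE 0.18, adjusted p = 0.0443). Cdkn2d was called in 3 of the 10 fits that left out 1 library, with an adjusted p up to 0.109, and Cdkn1c in 3, with an adjusted p up to 0.123. Cdkn1a, the inhibitor gene induced by p53, averaged 119 ± 16.1 CPM in KO and 80.2 ± 19.6 CPM in CTR (log2 fold change 0.57, SE 0.16, adjusted p = 0.0670), and its adjusted p was 0.0253 when CTR 4 was left out. Cdkn1b averaged 41.0 ± 7.35 CPM in KO and 32.8 ± 11.0 CPM in CTR, and Cdkn2c averaged 9.63 ± 0.968 CPM in KO and 9.83 ± 1.17 CPM in CTR, neither with a called difference.

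Genes that set the entry into the cycle showed little difference. Of 17 Rb, E2F and DREAM factors tested, only Lin52 fell and none rose, where 2.11% of all genes fell. DESeq2 and voom also each called 1 lower, where they called 5.23% and 6.76% of all genes lower. Lin52 (ENSMUSG00000085793), a MuvB subunit that DREAM and B-Myb complexes share, stood at 5.04, 4.71, 5.48, 5.01 and 5.69 CPM in KO 1 to KO 5, against 6.37, 8.47, 7.22, 7.77 and 6.86 CPM in CTR 1 to CTR 5. All KO libraries lay below all CTR libraries, and the log2 fold change was -0.50 (SE 0.12, adjusted p = 0.0462). The call was kept in 1 of the 10 fits that left out 1 library and lost in the other 9 (adjusted p up to 0.128), and lost with library-size scaling. The retinoblastoma gene Rb1 averaged 65.3 ± 5.39 CPM in KO and 64.4 ± 13.4 CPM in CTR, its relative Rbl1 averaged 23.3 ± 2.15 CPM in KO and 21.9 ± 5.43 CPM in CTR, and the repressor gene E2f4 averaged 40.9 ± 4.20 CPM in KO and 43.7 ± 3.56 CPM in CTR. Foxm1, a driver of mitotic genes, averaged 1.82 ± 0.513 CPM in KO and 2.06 ± 1.59 CPM in CTR, Mybl2, which encodes B-Myb, averaged 1.35 ± 0.229 CPM in KO and 1.71 ± 0.723 CPM in CTR, and Myc averaged 8.94 ± 2.19 CPM in KO and 8.64 ± 5.97 CPM in CTR. Each of these 6 genes differed by less than the SD of its CTR libraries.

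Of 8 G1 cyclins and kinases edgeR called 0, where it called 3.94% of all genes. DESeq2 and voom each called 1 higher, where they called 4.54% and 7.77% of all genes higher. At an unadjusted p under 0.05, 1 was higher, against 10% of all genes. Cdk6, a partner of the D cyclins, averaged 50.6 ± 9.85 CPM in KO and 36.3 ± 6.12 CPM in CTR (log2 fold change 0.48, SE 0.15, adjusted p = 0.0902). Cdk4, the other D cyclin kinase, averaged 91.8 ± 4.73 CPM in KO and 108 ± 20.3 CPM in CTR. Ccnd1 averaged 9.48 ± 5.64 CPM in KO and 7.17 ± 3.75 CPM in CTR, and Ccnd2 averaged 1.41 ± 0.224 CPM in KO and 1.21 ± 0.609 CPM in CTR, both with differences inside the spread between libraries.

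**Figure D5:**
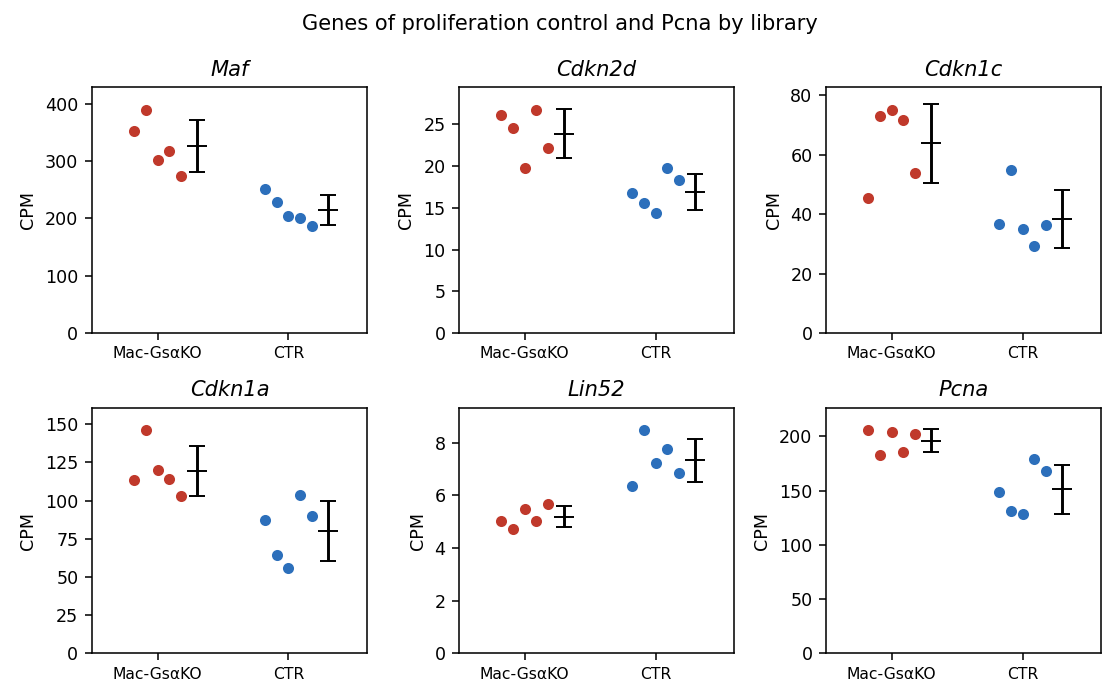
CPM in each library, with the mean and SD of each genotype (n = 5) as bars, for Maf, Cdkn2d, Cdkn1c, Cdkn1a, Lin52 and Pcna, KO left of CTR in each panel and axes starting at 0. The genotypes lie apart for Maf, Cdkn2d, Lin52 and Pcna and overlap for Cdkn1c and Cdkn1a; Cdkn1a and Pcna did not pass the test.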

How the data were processed

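Total RNA was sequenced from 10 libraries of cultured peritoneal macrophages. Per the submitters' processing notes, the authors used CASAVA 1.8, HISAT2, SAMtools 1.3.1 and edgeR with the build GRCm39, roles not stated. The sources used here name no counting tool, annotation or strand setting. Per the file headers, the authors deposited a raw count for each Ensembl gene and library, and FPKM. The deposited FPKM equal counts over gene length and column total within a relative deviation of 9.65e-06 (genes of at least 50 counts) and were used only for lengths and for levels between genes. Symbols matched 53274 of 53465 identifiers, and the other 191 held 0.0403% of the counts.

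Counts were fitted in R 4.3.3 with edgeR 4.0.16 (filterByExpr, TMM, quasi-likelihood test, genotype only, two-sided, Benjamini-Hochberg over 13203 genes, threshold 0.05). SE was taken as |log2 fold change| divided by √F. The 1 CPM rule used unscaled library sizes, and 3 counts, the upper limit for a count of 0, equal 0.156 to 0.192 CPM, covering counting error only. Alternatives used DESeq2 1.42.0, limma 3.58.1 and mgcv 1.9.3 (length trend with 6 knots), other scalings and filters, and each library left out. The test was checked on simulated data.

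The members and lists were chosen with earlier results of these data known. Values by library are given for genes that passed and for a fixed set; Cdc20, Ube2c, Aurka and Plk1 were added after their values were seen. Promoter sequences and overlaps come from RefSeq and GENCODE M21 on GRCm38, another build than the authors'. Libraries were not paired. A few genes of the fixed set and of the marker lists are not reported here.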

Additional observations from a re-analysis of the deposited data

Results flagged for a closer look

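In 8 of 72 groups of 5 libraries examined (11.1%), 1 library lay far from the other 4. In KO these were Ccna2 (7.64 CPM in KO 5, next 3.19), Ccne2 (2.24 CPM in KO 5, next 1.11) and Nusap1 (2.99 CPM in KO 5, next 1.40). In CTR these were Cdk1 (8.91 CPM in CTR 5, next 5.75), Bub1 (4.43 CPM in CTR 5, next 2.31), Aurka (6.48 CPM in CTR 5, next 3.67), Tk1 (8.42 CPM in CTR 5, next 3.97) and Ube2c (5.92 CPM in CTR 5, next 3.24). Each time it was the highest library of its genotype, KO 5 or CTR 5. Chance would flag about 5% of independent groups, but these genes vary together over the same 10 libraries. The share of 11.1% therefore cannot be read as an excess.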

How the results depend on the processing

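The count of genes called over the whole table, 520, was 261 with no filter on low counts, 1289 by DESeq2, 1919 by voom, 1185 without CTR 4 and CTR 5 (the main 241 higher and 279 lower became 312 and 213 with library-size scaling), and 62 to 868 with 1 library left out. S phase genes called, 0 in the main test, were 1 with library-size scaling, with the length correction, by voom and without CTR 4 and CTR 5, 2 by DESeq2 and at an unadjusted p, and 0 to 1 with 1 library left out. Mitotic genes called were 3 by DESeq2, 5 by voom, 1 without CTR 4 and CTR 5, 7 at an unadjusted p, and 0 to 2 with 1 library left out. The 4 called in the other lists were 1 with no filter, 10 by DESeq2, 22 by voom, 7 without CTR 4 and CTR 5, and 0 to 8 with 1 library left out. The labels do not say that equal replicate numbers pair libraries, and the deviations of equal-numbered libraries from their group means correlated between -0.126 and 0.0582, none best with its own number; with the replicate number as a block, calls were 104 over all genes, 0 of the S phase genes, 1 of the mitotic genes (Birc5) and 1 in the other lists (Maf). The mitotic score difference stayed between -0.58 and -0.32 with 1 library left out; the S phase one stayed between -0.32 and -0.09 and was 0.14 as the log2 of the sum. Of the 34 genes, 27 kept their sign in all 20 settings. None of the sign changes was of a called value. By voom the log2 fold change was 0.061 for Bub1, 0.038 for Tk1, 0.17 for Stmn1, 0.24 for Foxm1, -0.13 for Rb1, -0.10 for Rbl1, 0.021 for Cdkn2c. Without CTR 4 and CTR 5 it was 0.21 for Bub1, 0.15 for Tk1, 0.028 for Hmgb2, 0.21 for Stmn1, 0.43 for Foxm1, -0.17 for Rb1, -0.14 for Rbl1, 0.030 for Cdkn2c. It was 0.0037 for Foxm1 with the block, -0.0088 for Myc with the length correction and 0.0089 for Cdkn2c with library-size scaling. With 1 library left out it ran over -0.24 to 0.23 for Bub1, -0.27 to 0.12 for Bub1b, -0.27 to 0.029 for Aurkb, -0.39 to 0.22 for Tk1, -0.21 to 0.12 for Stmn1, -0.31 to 0.093 for E2f8, -0.028 to 0.38 for Ccnd2, -0.082 to 0.10 for Rb1, -0.024 to 0.17 for Rbl1, -0.34 to 0.42 for Foxm1, -0.082 to 0.58 for Myc, -0.10 to 0.023 for Cdkn2c. The causes were not tested. The unadjusted p, the score without Pcna and the counts over the other lists were chosen after seeing the data. Many mitotic genes rest on few counts per library (14 to 78 for Cdc20).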

Other observations

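Within the broader mitotic list, genes outside the rule for named genes and chosen after their values were seen stood against the general direction. Iqgap3, a scaffold protein gene, averaged 33.9 ± 7.51 CPM in KO and 21.3 ± 5.90 CPM in CTR (log2 fold change 0.67, SE 0.20, adjusted p = 0.0792). Hjurp, the chaperone that deposits the centromeric histone, averaged 25.7 ± 5.33 CPM in KO and 17.3 ± 5.23 CPM in CTR (0.57, SE 0.21, adjusted p = 0.132), and Cenpa, which encodes that histone, averaged 28.9 ± 5.43 CPM in KO and 21.6 ± 3.16 CPM in CTR (0.42, SE 0.14, adjusted p = 0.115). None passed the edgeR test. The same list held Ckap2, a spindle protein gene, at 0.735 ± 0.260 CPM in KO and 1.75 ± 0.843 CPM in CTR (-1.25, SE 0.38, adjusted p = 0.0854).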
